A study of Mus musculus with 12 samples.

Results

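Quiescence and the naive state were examined in mouse spleen CD4+ T cells through 10 genes, Foxo1, Foxo3, Foxp1, Tcf7, Lef1, Bach2, Satb1, Btg1, Btg2 and Tob1. They were listed by name as regulators of resting and naive T cells, by a rule that uses no measured value, although earlier results of these data were known when the list was made. All 10 were found among the 23479 gene symbols of the count tables, and all 10 were among the 10981 genes that passed the filter on low counts and were tested. Wild-type (WT) cells came from C57BL/6J mice. Knockout (KO) cells came from Sirt2-/- mice on a background labelled C57BL/6. The labels do not say whether these are the same substrain, so a genotype difference cannot be told apart from one of background. Sirt2 encodes an NAD-dependent protein deacetylase, and the title of the series places its question in T cell metabolism and anti-tumour immunity. RNA was taken directly after isolation (0 h) or after 24 h of culture on dishes coated with 5 µg/ml of an antibody to CD3, which crosslinks the T cell receptor complex. No 24 h culture without the antibody is among the libraries, so effects of the antibody and of culture cannot be told apart. No costimulatory antibody and no animal age is named in the labels. There were 12 libraries of total RNA, 3 for each genotype at each time. Whether the 3 were made from different animals is not stated, so every p-value sets a difference against the scatter of libraries, and that scatter may be technical only.

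A naive T cell is held in a small, slowly metabolising state by an active programme of transcription. FOXO proteins are forkhead transcription factors that stay in the nucleus while PI3K-AKT signalling is low, and they drive genes of survival and trafficking such as Il7r, Klf2 and S1pr1. T cell receptor signals activate AKT, which phosphorylates FOXO proteins and moves them out of the nucleus. FOXP1 is a forkhead repressor that restrains the response of naive T cells to IL-7 and antigen. TCF1, the product of Tcf7, and LEF1 are HMG-box factors of T cell identity and bind beta-catenin. BACH2 pairs with small MAF proteins and represses effector genes. SATB1 organises chromatin in developing and resting T cells. BTG1, BTG2 and TOB1 are related anti-proliferative proteins that bind the CCR4-NOT deadenylase, and BTG1 and BTG2 are known to keep T cells quiescent by lowering the stability of mRNA.

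Reads in genes numbered 3.63 to 10.0 megareads per library, and the member genes had 182 (Tob1) to 34105 (Tcf7) reads in a library. Levels are given as CPM, counts per megaread of gene reads after scaling by TMM factors. They are relative to the RNA of the library, so that fewer cells of a type and less RNA per cell cannot be told apart. Sirt2 checked the labels, with 67.9 to 85.4 CPM in WT 0 h against 9.04 to 16.2 CPM in KO 0 h, and 62.3 to 76.3 CPM in WT 24 h against 9.52 to 19.7 CPM in KO 24 h. The defining T cell markers were high in every library, at a summed 7558 to 8722 CPM at 0 h and 3986 to 4426 CPM at 24 h for 12 markers. The 0 h cells are labelled naive but were not sorted for it, and 8 regulatory T cell markers summed to 713 to 920.4 CPM and 9 effector or memory markers to 756 to 901 CPM at 0 h. A gene passed the test at an adjusted p below 0.05, where p came from edgeR's quasi-likelihood test and was corrected by Benjamini-Hochberg over the 10981 genes.

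After 24 h of culture with anti-CD3, 6 of the 10 genes fell in both genotypes. These were Foxo1, Tcf7, Lef1, Btg1, Btg2 and Tob1. Bach2 and Foxp1 rose in both genotypes, Bach2 by 2.59-fold in WT and 2.32-fold in KO. Satb1 rose by 1.17-fold in WT and did not pass in KO, and Foxo3 did not pass in either. In WT 9 of 10 members passed, 3 higher and 6 lower, where 40.7% of all tested genes passed (20.2% higher, 20.5% lower). In KO 8 of 10 passed, 2 higher and 6 lower, where 40.4% of all tested genes passed (19.4% higher, 21% lower). The libraries of 0 h and 24 h did not overlap in 9 members in WT and 8 in KO, against 49.3% and 49.4% of all tested genes. The median log2 change of the 10 was -0.67 in WT and -0.70 in KO, against a median of 0.00 over all tested genes in each. Between the genotypes none of the 10 passed, at 0 h, at 24 h or in the interaction of genotype and time.

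The 10 genes summed to 9660 ± 237 CPM in WT 0 h (SD, n = 3) and 10003 ± 619 CPM in KO 0 h. At 24 h they summed to 7145 ± 329 CPM in WT and 6943 ± 234 CPM in KO. Every 24 h library lay below every 0 h library, with a highest sum of 7503 CPM at 24 h and a lowest of 9385 CPM at 0 h. Tcf7 was the largest term in every group.

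**Figure D1:**
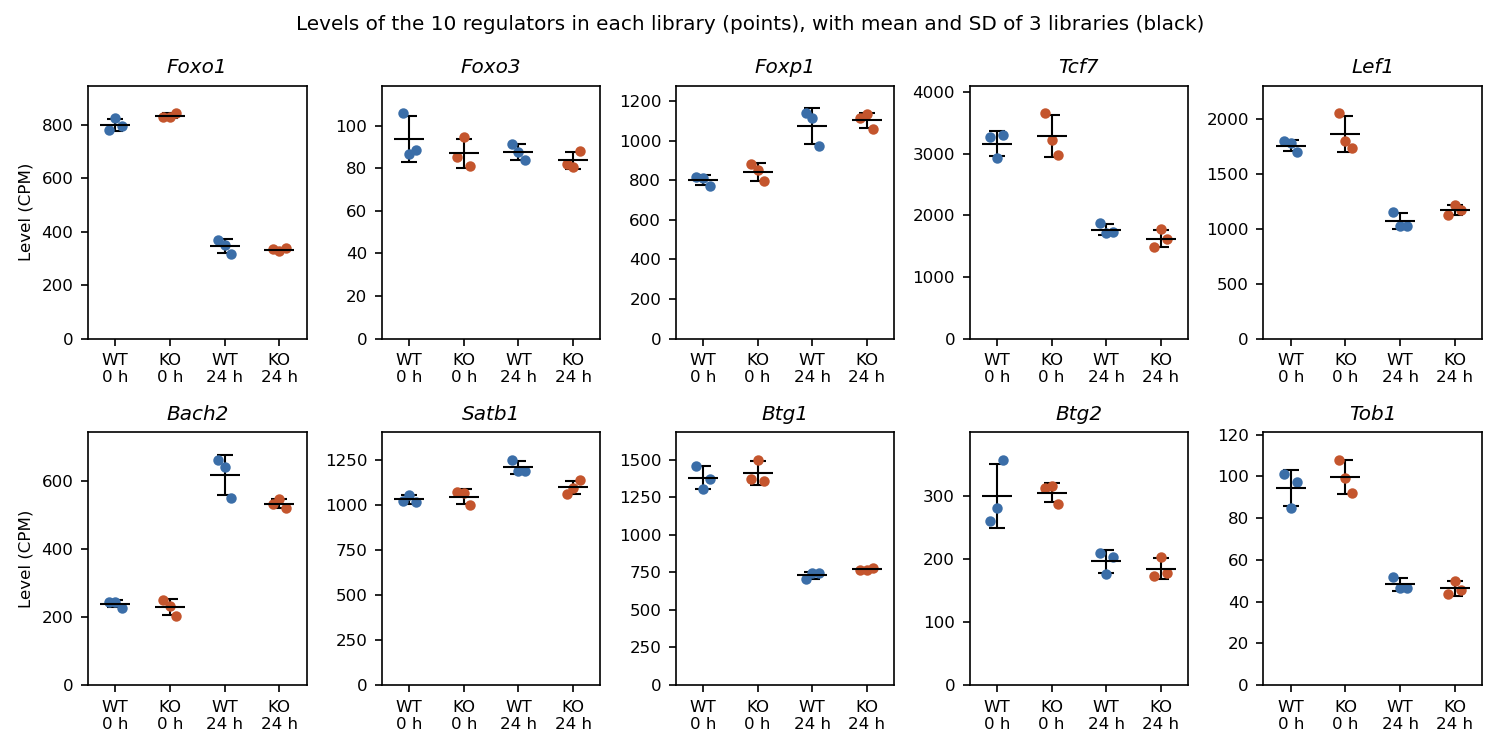
Levels of the 10 genes in each of the 12 libraries, 1 panel per gene, with CPM on a vertical axis from 0 and both genotypes at both times along the horizontal axis. Points are libraries and bars are group means ± SD (n = 3). The time steps stand out in Foxo1, Bach2 and Btg1. WT and KO points of the same time overlap, except in Foxo1 at 0 h and in Bach2, Satb1 and Btg1 at 24 h.

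The starts of these genes are shown because several members fell together over time and because the members include FOXO, TCF/LEF and BACH factors, whose preferred DNA letters are known. RefSeq promoter windows of 300 bases, from 250 bases before to 50 after each annotated start on build GRCm38.p6, were read for all 10 genes, which had 20 windows. Both strands were searched for the FOXO letters GTAAACA, the TCF/LEF letters CTTTGAT, the AP-1 and BACH letters TGANTCA, the E-box CACGTG, the ETS letters CCGGAAGT, the GC box GGGGCGGGG and the CRE TGACGTCA. In the sequences below, written 5′ to 3′ on the gene's strand, capitals mark a match. Foxo1 lies at chr3:52268087-52268386 (+ strand), and its capitals are a GC box. Tcf7, in the second of its 2 windows, lies at chr11:52282546-52282845 (- strand), with ETS letters and then FOXO letters in capitals. Btg1 lies at chr10:96616751-96617050 (+ strand), with FOXO letters on the opposite strand. Btg2 lies at chr1:134079106-134079405 (- strand), with a CRE. Bach2, the member that rose most, lies at chr4:32417185-32417484 (+ strand) and held none of the letters.
Foxo1: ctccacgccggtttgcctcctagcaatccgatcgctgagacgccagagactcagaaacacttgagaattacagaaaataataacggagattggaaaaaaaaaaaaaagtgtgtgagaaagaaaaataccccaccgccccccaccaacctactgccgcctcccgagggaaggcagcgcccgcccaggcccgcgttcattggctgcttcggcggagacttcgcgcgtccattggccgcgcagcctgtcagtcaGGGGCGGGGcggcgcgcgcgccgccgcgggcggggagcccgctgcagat
Tcf7: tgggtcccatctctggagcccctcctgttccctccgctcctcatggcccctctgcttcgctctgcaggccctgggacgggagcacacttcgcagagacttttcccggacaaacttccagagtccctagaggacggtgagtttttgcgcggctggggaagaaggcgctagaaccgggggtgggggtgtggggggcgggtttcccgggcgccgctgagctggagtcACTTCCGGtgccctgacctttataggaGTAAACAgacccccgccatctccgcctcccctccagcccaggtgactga
Btg1: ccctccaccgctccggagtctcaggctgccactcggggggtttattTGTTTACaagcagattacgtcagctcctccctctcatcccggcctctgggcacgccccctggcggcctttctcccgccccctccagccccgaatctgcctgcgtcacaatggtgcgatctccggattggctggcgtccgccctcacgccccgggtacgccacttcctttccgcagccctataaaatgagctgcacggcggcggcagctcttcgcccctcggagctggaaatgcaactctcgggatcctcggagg
Btg2: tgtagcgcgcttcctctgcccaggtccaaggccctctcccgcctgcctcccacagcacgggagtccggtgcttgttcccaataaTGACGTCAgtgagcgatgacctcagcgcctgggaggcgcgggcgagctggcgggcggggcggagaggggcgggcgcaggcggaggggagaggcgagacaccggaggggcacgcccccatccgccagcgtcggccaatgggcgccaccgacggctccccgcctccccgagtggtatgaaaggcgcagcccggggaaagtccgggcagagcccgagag
Bach2: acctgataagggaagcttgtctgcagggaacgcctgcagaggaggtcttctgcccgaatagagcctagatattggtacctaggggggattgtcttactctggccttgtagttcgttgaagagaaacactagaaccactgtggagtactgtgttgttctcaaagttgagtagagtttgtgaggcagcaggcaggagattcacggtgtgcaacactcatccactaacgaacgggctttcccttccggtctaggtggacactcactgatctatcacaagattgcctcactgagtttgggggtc

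FOXO letters were in 2 of the 20 member windows, 1 each of Tcf7 and Btg1, and in 3.65% of all 32851 RefSeq windows of this length. The windows of a gene can overlap and are not independent. Their leftmost base lay 2 bases after the start in Tcf7 and 204 bases before it in Btg1, at position -204. Both genes fell from 0 h to 24 h, as did Foxo1, Lef1, Btg2 and Tob1, whose windows held no FOXO letters. A link between these letters and the changes was not tested. No member window held the TCF/LEF letters, which 3.73% of all windows held, or the AP-1 and BACH letters, which 7.81% held. The ETS letters of Tcf7 began at position -26 (3.89% of all windows), and the CRE of Btg2 at position -166 (1.79%). GC boxes were in 7 of the 20 member windows, those of Foxo1, Foxo3, Satb1, Tob1 and, in 3 windows, Lef1 (11.4% of all windows). The E-box was in 1 of the 20, a window of Lef1 (7.15%). A match describes letters only, and the absence of one says only that these letters are not in the window.

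The forkhead gene Foxo1 encodes the main FOXO factor of naive T cells. It had 780.3, 824 and 793 CPM at 0 h and 368, 351 and 316 CPM at 24 h in WT. In KO it had 828, 827 and 843 CPM at 0 h and 334, 326 and 337 CPM at 24 h. Every 24 h library was far below every 0 h library, and the 24 h level was 43.2% of the 0 h level in WT and 39.9% in KO. The log2 change was -1.21 in WT (SE 0.0817, edgeR, adjusted p = 6.9e-17) and -1.32 in KO (SE 0.0823, edgeR, adjusted p = 4.15e-18). Among all tested genes, 11.1% had a larger change in WT and 9.66% in KO, in either direction.

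Its paralog Foxo3, which shares the forkhead DNA-binding domain and the AKT control, did not pass the test over time. Foxo3 had 106, 86.6 and 88.7 CPM at 0 h and 91.4, 87.5 and 84.1 CPM at 24 h in WT. The KO libraries had 85.3, 94.7 and 81.1 CPM at 0 h and 82.2, 80.6 and 88.3 CPM at 24 h. The ranges of 0 h and 24 h overlapped in both genotypes. The log2 change was -0.09 in WT, with a 95% interval of -0.3 to 0.11 (edgeR, adjusted p = 0.492), and -0.06 in KO (SE 0.104, edgeR, adjusted p = 0.69).

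Foxp1, the forkhead repressor of naive T cell responses, moved the opposite way to Foxo1. It had 816, 812 and 773 CPM at 0 h and 1139, 1113 and 970.4 CPM at 24 h in WT. The KO libraries had 881, 849 and 794 CPM at 0 h and 1113, 1132 and 1059.7 CPM at 24 h. All 24 h libraries were above all 0 h libraries, and the lowest of them was the third WT library. Foxp1 rose by 0.42 on the log2 scale in WT (SE 0.0836, edgeR, adjusted p = 4.86e-05) and by 0.39 in KO (SE 0.0837, edgeR, adjusted p = 0.000181).

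Tcf7 and Lef1 had the most reads of the 10 genes at 0 h, and both fell. Tcf7 had 3267, 2923 and 3300.4 CPM at 0 h and 1874, 1708 and 1724 CPM at 24 h in WT. In KO it had 3658, 3216 and 2985 CPM at 0 h and 1485, 1769 and 1612 CPM at 24 h. The KO libraries spread more widely than the WT libraries at both times, and 0 h and 24 h did not overlap. Tcf7 kept 55.9% of its 0 h level in WT (log2 -0.84, SE 0.0919, edgeR, adjusted p = 1.99e-10) and 49.3% in KO (log2 -1.02, SE 0.0923, edgeR, adjusted p = 9.35e-13). Lef1, the other HMG-box factor, had 1800.2, 1779 and 1699 CPM at 0 h and 1154, 1024 and 1028 CPM at 24 h in WT. Its KO libraries had 2056, 1798 and 1741 CPM at 0 h and 1129, 1217 and 1168 CPM at 24 h. The 24 h libraries again lay below all 0 h libraries, at 60.7% of the 0 h level in WT (log2 -0.72, SE 0.0862, edgeR, adjusted p = 2.08e-09) and 62.8% in KO (log2 -0.67, SE 0.0862, edgeR, adjusted p = 1.24e-08).

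Bach2, the repressor of effector genes, had the largest rise of the 10. It had 245, 243 and 227 CPM at 0 h and 662, 639 and 549.8 CPM at 24 h in WT. The KO libraries had 249, 233 and 204 CPM at 0 h and 531, 546 and 519 CPM at 24 h. The lowest 24 h library was more than 200 CPM above the highest 0 h library. The log2 change was 1.37 in WT (SE 0.0874, edgeR, adjusted p = 9.68e-18) and 1.22 in KO (SE 0.0877, edgeR, adjusted p = 6.71e-16), and 8.73% and 11.4% of tested genes had a larger one. Bach2 overlaps the antisense gene Bach2os, and its reads cannot be told from those of Bach2 because no strand setting is given.

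Satb1, the chromatin organiser, had the smallest of the changes that passed. It had 1019.9, 1057 and 1014 CPM at 0 h and 1251, 1187 and 1189 CPM at 24 h in WT, with no overlap. The KO libraries had 1071, 1068 and 997 CPM at 0 h and 1062, 1095 and 1135 CPM at 24 h, and these ranges overlapped. Satb1 rose by 0.23 in WT on the log2 scale (SE 0.0807, edgeR, adjusted p = 0.019). The call was lost without the first WT 24 h library (0.21, edgeR, adjusted p = 0.0752) and with upper-quartile scaling (0.17, edgeR, adjusted p = 0.0809). Over all alternatives its adjusted p ran from 0.000306 in DESeq2 to that 0.0809. In KO its log2 change was 0.07, with a 95% interval of -0.09 to 0.23 (edgeR, adjusted p = 0.528). A rise that passed in WT and not in KO does not show that the genotypes differ, nor that they are alike. The interaction of Satb1 was -0.16 with an interval of -0.39 to 0.07 (edgeR, adjusted p from 0.996 to 1 over the 10 members).

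The 3 genes of the BTG/TOB family among the members all fell. Btg1 had 1462, 1309 and 1375 CPM at 0 h and 703, 744 and 744 CPM at 24 h in WT. The KO libraries had 1374, 1502 and 1360.1 CPM at 0 h and 769, 767 and 781 CPM at 24 h, the tightest group of any member with a coefficient of variation of 1.01%. Btg1 kept 52.9% of its level in WT (log2 -0.92, SE 0.0826, edgeR, adjusted p = 7.21e-13) and 54.7% in KO (log2 -0.87, SE 0.0827, edgeR, adjusted p = 3.86e-12). No 24 h library reached the 0 h range. Btg2, the closest relative of Btg1, had 260.2, 279.9 and 357 CPM in WT 0 h, the widest group of any member with a coefficient of variation of 17.1%. It had 209, 175 and 203 CPM in WT 24 h, and in KO 312, 315 and 287 CPM at 0 h and 173, 203 and 177 CPM at 24 h. Even so 0 h and 24 h did not overlap, and the 24 h level was 65.2% of the 0 h level in WT (log2 -0.62, SE 0.0964, edgeR, adjusted p = 8.57e-07) and 60.6% in KO (log2 -0.72, SE 0.0976, edgeR, adjusted p = 3.89e-08). Tob1, with the fewest reads of the members at 24 h, had 101, 84.7 and 97.1 CPM at 0 h and 51.8, 46.4 and 46.5 CPM at 24 h in WT. Its KO libraries had 108, 99.4 and 91.9 CPM at 0 h and 43.4, 50 and 45.3 CPM at 24 h. Tob1 fell to 51.0% in WT (log2 -0.97, SE 0.109, edgeR, adjusted p = 4.18e-10) and 46.3% in KO (log2 -1.11, SE 0.112, edgeR, adjusted p = 2.39e-11), again without overlap.

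**Figure D2:**
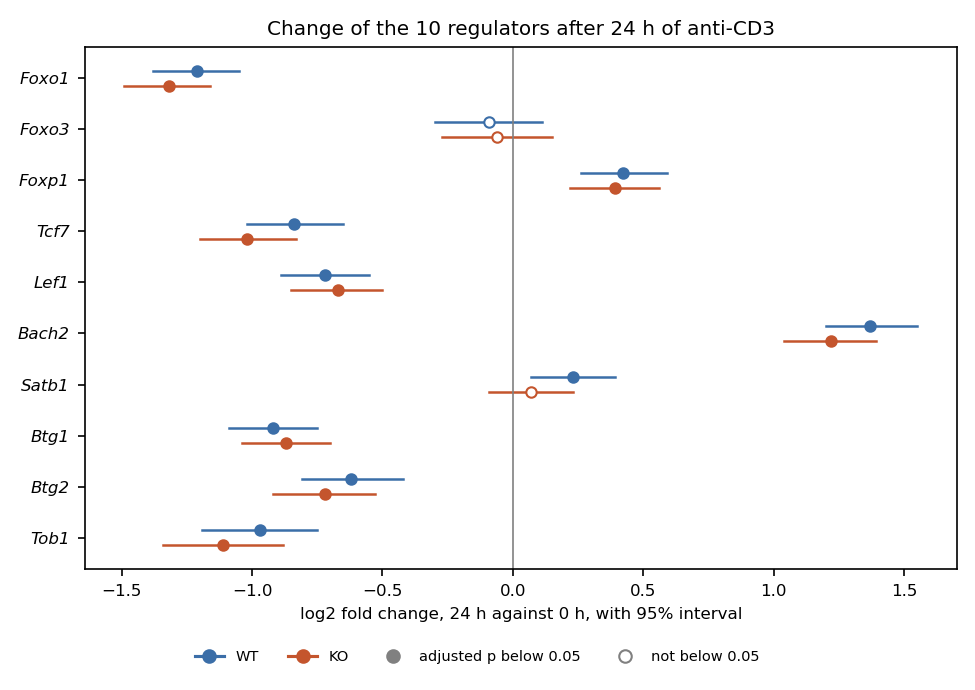
Log2 change of each of the 10 genes from 0 h to 24 h, in WT and in KO, with 95% intervals of the edgeR fit. The 6 genes that fell and the 2 that rose in both genotypes lie on the same side of 0 in WT and KO, and the intervals of Foxo3 in both and of Satb1 in KO cross 0.

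Other measures moved with time beside these genes. Of the 12 T cell markers 9 fell in WT and 10 in KO, of the 9 effector or memory markers 7 fell in WT, and of 8 regulatory T cell markers 4 rose and 3 fell in WT. The summed regulatory T cell markers were at 1117 to 1464 CPM at 24 h and the summed effector or memory markers at 319.8 to 411 CPM. Much of the regulatory sum at 24 h was Il2ra, which is also in the list of activation genes. Its means went from 202 to 739 CPM in WT and from 183 to 683 CPM in KO. Foxp3 of the same markers fell from 310.0 to 181 CPM in WT and from 261 to 154 CPM in KO. The 13 B cell markers summed to 68.7 to 92.8 CPM at 0 h and 34.0 to 63.6 CPM at 24 h. The ribosomal RNA precursor Rn45s took 12.5% to 17.5% of gene reads in the 0 h libraries and 7.95% to 9.55% in the 24 h libraries. The part of these in the changes of the 10 genes was not tested, except that leaving out Rn45s left the same number of members past the threshold in each comparison.

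Between genotypes at 0 h, none of the 10 genes passed (0 of 10 by edgeR, where 0.346% of all tested genes passed), and at an unadjusted p below 0.05 there were 0 members and 878 genes in all. The log2 differences, KO against WT, ran from -0.10 in Foxo3 to 0.08 in Lef1 and Tob1, with edgeR adjusted p of 0.872 to 0.978. All 95% intervals lay within -0.31 to 0.29, which is 0.808 to 1.23 of the WT level. The median size of the difference, without its sign, was 0.0575 in the 10 genes and 0.133 in all tested genes. These medians are not matched for level, as the members had at least 182 reads in every library and many tested genes had fewer. Foxo1 was the only member whose libraries did not overlap, with 827 CPM as the lowest KO and 824 CPM as the highest WT library, a log2 difference of 0.06 (95% interval -0.1 to 0.22). Libraries did not overlap in 12.4% of all tested genes, 6.04% higher and 6.37% lower in KO. At this time Cd8b1, a CD8 T cell marker, passed as higher in KO, with means of 17.4 CPM in WT and 31.5 CPM in KO. Of the 6 B cell markers tested 1 passed, Cd22, which was lower in KO with means of 7.41 and 1.32 CPM. The sum of all 13 B cell markers, 76.0 to 92.3 CPM in WT and 68.7 to 92.8 CPM in KO, was mostly Cd74 (means of 56.6 and 53 CPM). The part of these markers in the values of the 10 genes was not tested.

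At 24 h none of the 10 genes passed between genotypes (0 of 10 by edgeR, where 0.273% of all tested genes passed), and at an unadjusted p below 0.05 there was 1 member, Bach2, among 775 genes. All 95% intervals lay within -0.38 to 0.31, which is 0.766 to 1.24 of the WT level. Bach2 averaged 617 ± 59.3 CPM (WT) and 532 ± 13.5 CPM (KO), as mean ± SD of 3 libraries, a log2 difference of -0.21 with an interval of -0.38 to -0.04 (edgeR, adjusted p = 0.568). Every KO library of Bach2 was below every WT library, by 546 CPM against 549.8 CPM at the nearest. Satb1 also had all KO libraries below all WT libraries, with group means of 1097 ± 36.5 CPM (KO) and 1209 ± 36 CPM (WT) and a log2 difference of -0.14 (95% interval -0.3 to 0.02, edgeR, adjusted p = 0.787). Btg1 had all KO libraries above all WT libraries, at 772 ± 7.83 CPM against 731 ± 23.6 CPM (log2 0.08). Among all tested genes 12.9% showed no overlap, 5.74% higher and 7.19% lower in KO. Lef1 differed by 0.13 (interval -0.04 to 0.31) and Tcf7 by -0.12 (interval -0.31 to 0.06), and their libraries overlapped.

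The change over time did not pass as different between genotypes in any of the 10 genes (0 of 10 by edgeR, where 0.00911% of all tested genes, 1 gene, passed). At an unadjusted p below 0.05 there were 0 members and 575 genes. The interaction ran from -0.18 in Tcf7 (interval -0.44 to 0.08) to 0.05 in Lef1 and Btg1, with edgeR adjusted p of 0.996 to 1. These intervals are wider than those of the single comparisons and lay within -0.45 to 0.33 for all 10.

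**Figure D3:**
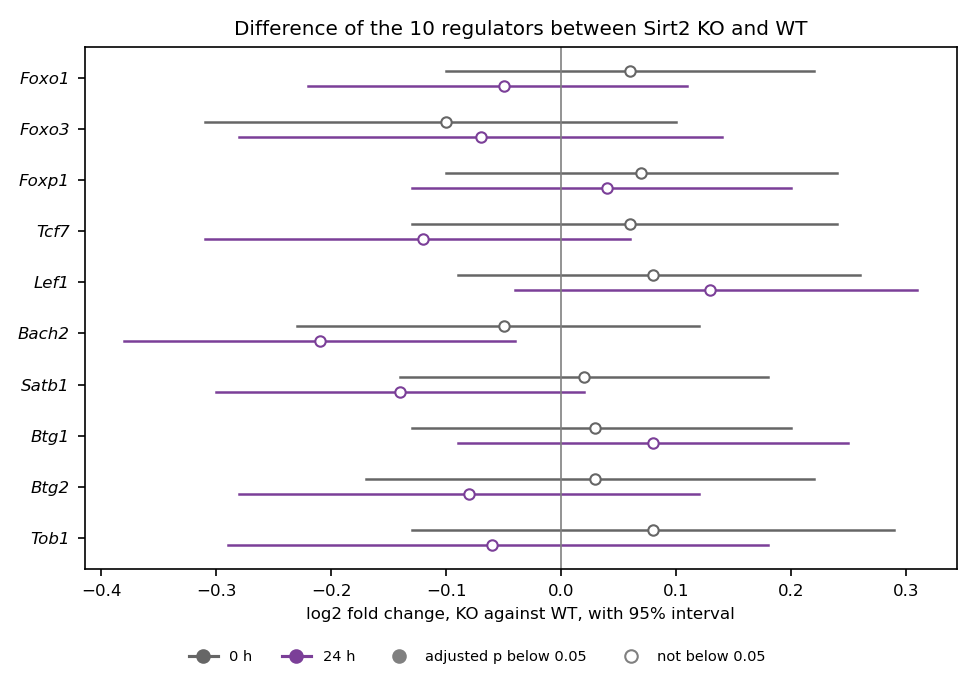
Log2 difference between KO and WT for each of the 10 genes at 0 h and at 24 h, with 95% intervals of the edgeR fit. All intervals include 0 except that of Bach2 at 24 h, whose upper end is -0.04.

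Levels can be compared between genes only per length, and CPM was divided by the exon length in kb of each gene's protein-coding transcripts. In WT 0 h the order was Tcf7 with 1205 CPM per kb, Lef1 502, Btg1 262, Btg2 109, Foxp1 102, Foxo1 92.2, Satb1 89.7, Tob1 41.2, Bach2 26.8 and Foxo3 12.6. KO 0 h had the same order. In it the ranges of Btg2 and Foxp1 overlapped in both genotypes, and those of Foxo1 and Satb1 overlapped in WT. In WT 24 h Foxo1, with 39.8 CPM per kb, stood behind Bach2 with 69.4, after standing well ahead of it at 0 h. The full order there was Tcf7 674, Lef1 305, Btg1 138, Foxp1 137, Satb1 105, Btg2 71.3, Bach2 69.4, Foxo1 39.8, Tob1 21.1 and Foxo3 11.8 CPM per kb, and it was the same in KO 24 h. Btg1 and Foxp1, and Btg2 and Bach2, overlapped in WT 24 h. With exons of all transcripts as the length, a choice made after seeing the data, Btg1 stood ahead of Lef1 in all groups, Foxo1 ahead of Foxp1 at 0 h and Btg2 ahead of Satb1 at 24 h.

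For each member the 2 genes with the most similar pattern were found by the root mean square difference of log2 levels, each centred on its mean, over the 12 libraries among 5878 genes. Foxo1 was closest to Zbtb7b, which encodes the CD4 lineage factor ThPOK, and the integrin gene Itga4 (both 0.09, where the median gene was at 0.66). Tcf7 and Tob1 shared the neighbour Cd3e, which encodes a CD3 chain (0.06 and 0.04). Lef1 was closest to Limd2 (0.07) and Btg1 to the calmodulin kinase gene Camk4 and to Ube2h (both 0.07). Bach2 was closest to Cblb, a ubiquitin ligase that restrains T cell activation, at 0.09 where the median gene was at 0.67. Satb1 was closest to Brd1 (0.04) and Ptprc (0.06), Foxp1 to Elk4 and Dnajb6 (both 0.07), Btg2 to Gpr132 (0.08) and Foxo3 to Xiap (0.06).

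The counts in the lists that follow stand beside those of all tested genes, of which 20.2% rose and 20.5% fell in WT and 19.4% rose and 21% fell in KO. Known targets of FOXO1 did not move one way when Foxo1 fell. Of 16 tested targets in WT 6 rose, 6 fell and 4 did not pass, with a median log2 change of 0.01. Il7r, the IL-7 receptor chain, fell from 298 ± 43.8 to 130.0 ± 9.27 CPM (log2 -1.19, edgeR, adjusted p = 5.75e-15), and Irs2, an adaptor of insulin signalling, fell by 1.47 on the log2 scale. The pro-apoptotic gene Bcl2l11 rose by 1.41 and the repressor gene Bcl6 by 1.24. In KO 6 rose and 7 fell, with a median of -0.09. Of 31 tested genes of the PI3K-AKT route to FOXO, 9 rose and 7 fell in each genotype, and 15 did not pass. In WT the AKT phosphatase gene Phlpp1 rose by 2.49 on the log2 scale, while the FOXO kinase gene Sgk1 fell by 2.03 and Pik3cg by 1.04.

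Genes listed with TCF1 and LEF1 mostly fell with them. The list holds partners and also genes of beta-catenin degradation, namely Axin1, Axin2, Apc, Gsk3a, Gsk3b and Csnk1a1. In WT 11 of 16 tested genes of the list fell and 2 rose, with a median log2 change of -0.41. In KO 10 fell and 2 rose, with a median of -0.44. The median of all tested genes was 0 in both. Aes, a short Groucho-type corepressor, fell from 786 ± 43.5 to 262 ± 33.1 CPM in WT (log2 -1.59, edgeR, adjusted p = 7.27e-19), and the coactivator gene Bcl9l fell by 1.52. Ctnnb1, which encodes beta-catenin, rose by 0.66 in WT, and Apc, which encodes part of the complex that degrades it, rose too. In the list of naive and resting T cell genes, which holds Tcf7 and Lef1 themselves, 22 of 30 fell and 4 rose in WT, and 21 fell and 4 rose in KO. Examples in WT were Dapl1 (log2 -3.98), Igfbp4 (log2 -2.78) and the exchange factor gene Rasgrp2 (log2 -1.92). Between genotypes Ly6c1 of this list passed at both times, at 0 h with 202 ± 17.5 CPM in WT and 286 ± 26.8 CPM in KO (log2 0.50, edgeR, adjusted p = 0.00396), and lost the call without the first KO 0 h library (edgeR, adjusted p = 0.0554).

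Genes known to be repressed by BACH2 moved in both directions while Bach2 rose. In WT 7 of 22 tested genes rose and 8 fell, with a median of 0.25, and in KO 8 rose and 8 fell, with a median of 0.38. Genes of memory cells were among those that fell, with S100a4 at 14.4 ± 1.39 CPM at 0 h and 0.767 ± 0.534 CPM at 24 h in WT, and the gut homing receptor gene Ccr9 at 16.8 ± 4.08 and 2.07 ± 0.273 CPM. The cytokine gene Il13 rose from 0.0577 ± 0.1 CPM, close to no reads, to 14.2 ± 7.43 CPM. Of the 5 tested small MAF and CNC relatives, Mafg rose by 1.03 and Nfe2l1 by 0.69 in WT, and Maff fell by 1.67. Of 16 tested genes listed for the CCR4-NOT deadenylase, which BTG and TOB proteins bind, 5 rose and 0 fell in WT. In KO 4 rose and 1 fell, and the medians were 0.14 in WT and 0.13 in KO. The list also holds Pan2, Pan3 and Parn, which encode other deadenylases. In WT the call of Pan2 was lost in 6 of 14 alternatives and that of Cnot11 in 1. In KO those of Cnot8 and Tnks1bp1 were lost in 3 each. The scaffold gene Cnot1 went from 306 ± 8.14 to 386 ± 21 CPM in WT (log2 0.34, edgeR, adjusted p = 0.000741), so that the scaffold rose while Btg1, Btg2 and Tob1 fell.

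Among 7 tested paralogs of the members 2 rose and 4 fell in WT and 2 rose and 3 fell in KO. Bach1, the sister gene of Bach2, rose as Bach2 did, by 1.37 on the log2 scale from 37.2 ± 1.3 to 96.5 ± 7.1 CPM in WT (edgeR, adjusted p = 6.11e-14). Foxp3, the regulatory T cell factor and a relative of Foxp1, fell from 310.0 ± 46.7 to 181 ± 37.3 CPM in WT (log2 -0.78, edgeR, adjusted p = 0.000226). Foxo4 fell by 0.58 in WT, and its call was lost without the first or the second library of either WT group (adjusted p of up to 0.0907 in edgeR). Of 36 other quiescence regulators tested, 17 fell in each genotype, while 10 rose in WT and 9 in KO. Klf4 fell by 3.29 on the log2 scale in WT and the RNA decay gene Zfp36l2 fell by 2.12, and the cell cycle inhibitor gene Cdkn1a rose from 1.99 ± 0.538 to 53.4 ± 4.7 CPM.

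The list of activation and proliferation genes held members that rose and members that fell. In WT 13 of 26 rose and 5 fell, and in KO 13 rose and 7 fell. Irf4, a factor of activated lymphocytes, rose from 48.5 ± 4.94 to 768 ± 15.7 CPM in WT (log2 3.99, edgeR, adjusted p = 5.16e-33), and the transferrin receptor gene Tfrc by 2.72 on the log2 scale. Those that fell in WT included Mki67 (log2 -1.35), Ccna2 (log2 -1.89) and Top2a (log2 -1.12), which mark dividing cells. E2f2 (log2 -2.08) and Batf (log2 -1.11) fell in WT as well. Other cell cycle genes of the list rose in WT, among them Cdk6 (log2 1.61), Mcm2 (log2 0.76) and Ccnd2 (log2 0.67). All of these examples were chosen for mention after their values were seen. Between genotypes at 0 h, Nfkbid, Myc and Irf4 of this list were lower in KO, with log2 differences of -0.82, -0.50 and -0.42 (edgeR, adjusted p = 1.62e-05, 0.0236 and 0.0494), at a time when none of the 10 quiescence regulators passed. The call of Myc was lost in 5 of 14 alternatives (edgeR adjusted p of up to 0.201), among them without replicate 2 or 3 of KO 0 h or replicate 1 or 3 of WT 0 h. The call of Irf4 was lost in 7 (adjusted p of up to 0.379), among them without replicate 1 or 2 of KO 0 h or replicate 1 or 3 of WT 0 h, and that of Nfkbid in 0.

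**Figure D4:**
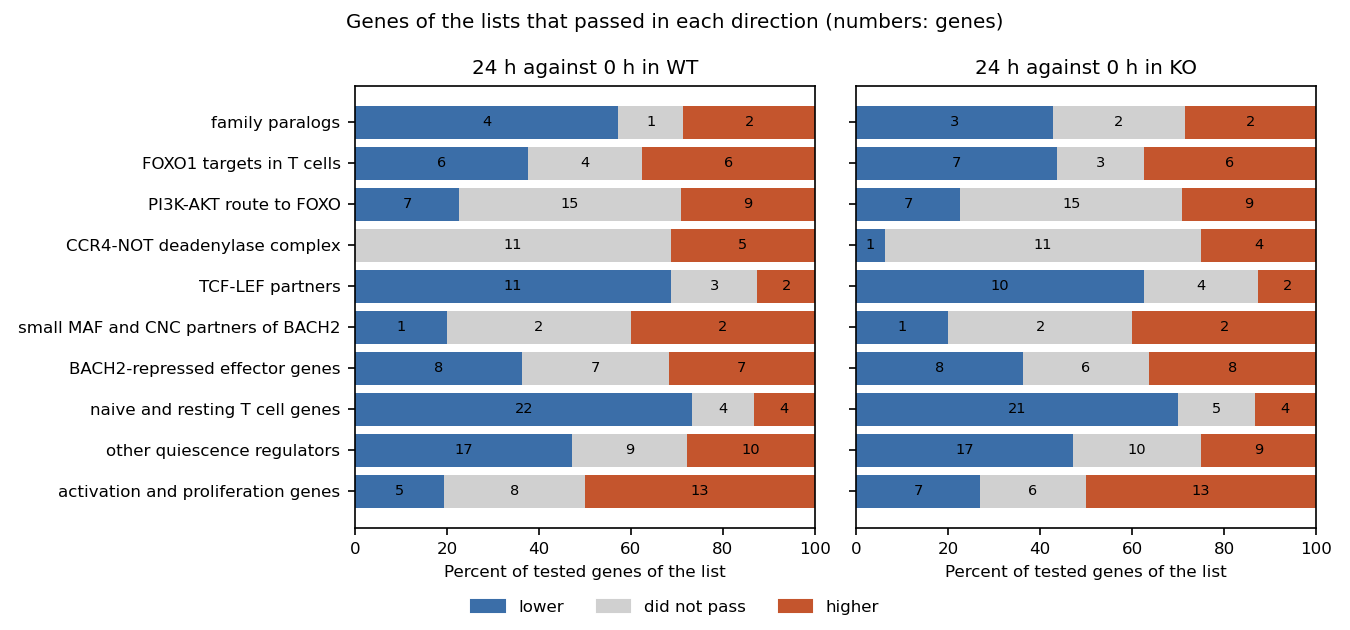
Numbers of tested genes in each of the 10 gene lists that rose, fell or did not pass from 0 h to 24 h, in WT and in KO, counted at an edgeR adjusted p below 0.05. Genes of the naive and resting list and of the TCF-LEF partner list mostly fell, while FOXO1 targets and BACH2-repressed genes split between the directions.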

How the data were processed

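The values were whole-number read counts per gene symbol, 1 table per library, as deposited by the authors. The submitters' processing notes name STAR 2.6.0c, DESeq and the human build hg19, although the symbols are mouse. Not given in the sources used here are the counter, the annotation and the strandedness, so reads of overlapping genes cannot be told apart. By GENCODE M21 exons on GRCm38 these are Foxo1 with Gm20402, Foxp1 with Gm20696 and Gm49348, Lef1 with Gm43352, Bach2 with Bach2os, and Satb1 with Gm36931 and Gm6934. The 5 entries that name no gene were left out. Of all reads 22.8% to 35.4% had no feature, 0.412% to 0.576% were ambiguous and 25.7% to 30.9% aligned to several places.

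Groups came from the labels. Genes were kept by filterByExpr (minimum count 10, minimum total 15), scaled by TMM and tested in 1 edgeR quasi-likelihood fit of the 4 groups (edgeR 4.0.16, R 4.3.3), with p-values adjusted by Benjamini-Hochberg over 10981 genes. The code was tested on simulated data. Alternatives were DESeq2 1.42.0, limma-voom (limma 3.58.1), other scalings, no filter, only the groups compared, a replicate block, leaving out Rn45s and leaving out each library. The members and the gene lists were chosen with earlier results of these data known. Per list and comparison the rule named up to 4 genes with the largest change among those that passed, or the most abundant where none passed, and for each member the 2 nearest patterns. Other genes are named as examples of a direction only. A gene that the rule names is not reported here. Of 303 list and marker symbols, 5 were matched by a synonym and 2 not at all. No genome sequence or protein was used, only RefSeq promoter windows.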

Additional observations from a re-analysis of the deposited data

How the results depend on the processing

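The number of members past the threshold was 0 in each genotype comparison and in the interaction, and 8 over time in KO, under every alternative run for it. Over time in WT it was 8 or 9, and the one call lost was that of Satb1. Numbers over all genes moved more. The interaction had 1 gene, 0 with limma-voom, RLE, upper-quartile scaling or Rn45s left out, 3 without the filter, and 0 to 1 with a library left out. KO against WT at 0 h had 38 genes, 59 without the filter, 24 with only the groups compared, and 17 to 33 with a library left out. At 24 h it had 30, and 14 to 30 with a library left out. In these counts leaving out a library means fewer samples. For other moves the cause was not tested.

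The sign of 10 member differences, none of which passed, turned when single libraries were left out. At 0 h, KO against WT, the values ran from -0.13 to 0.02 for Bach2, -0.02 to 0.07 for Btg1, -0.07 to 0.17 for Btg2, 0 to 0.05 for Satb1 and -0.04 to 0.12 for Tcf7. At 24 h Foxp1 ran from -0.03 to 0.08. Over time Foxo3 ran from -0.13 to 0.02 in WT and -0.1 to 0.03 in KO, and the interaction from -0.05 to 0.11 in Foxo3 and -0.1 to 0.01 in Foxp1. Bach2 at 24 h, KO against WT, stayed between -0.29 and -0.16 with a library left out.

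The labels do not say whether replicate numbers pair the libraries, and the weak correlations below cannot exclude it. Same-numbered libraries of different groups had correlations of their deviations between -0.0884 and 0.0934, 0 of 18 pairs were over 0.1, and 7 of 12 libraries correlated best with their own number. With the replicate block, the members past the threshold numbered 0 at 0 h, 0 at 24 h, 9 over time in WT, 8 over time in KO and 0 in the interaction. Over all genes these were 32, 28, 4428, 4399 and 0.

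Depth was 3.63 to 10.0 megareads with 3 libraries per group. The 95% intervals of the members' genotype differences lay within 0.766 to 1.24 of WT. Each is for a single gene and rests on the scatter of libraries, which may be technical only. They therefore need not cover differences between animals.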
